A study of Danio rerio with 4 samples.

Results

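The new and the stored transcriptome of the zebrafish embryo were described at the late stage of the series, gene by gene. RNA made after fertilisation was taken as the labelled reads of a gene, its read count multiplied by its new-to-total RNA ratio (NTR), and RNA stored in the egg as the remaining, unlabelled reads. Both quantities were expressed as a share of their own sum in the library, and a gene was included with 100 or more reads in both libraries of the stage. This left 8932 of 25769 genes. The embryos came from an AB/TL background, received, as 1-cell embryos, an injection of 4sU (4-thiouridine), a uridine analogue that only newly transcribed RNA can take up, and were pooled at 25 per sample. The late samples are labelled 6 hpf (hours post fertilization), while the study's methods place them at 4.8 hpf, and the labels give 20 mM of 4sU where the methods give 50 mM. At this stage there was 1 polyA+ library, sequenced on a NextSeq, and 1 ribo-depleted library, sequenced on a NovaSeq, and 1 of each at 1 hpf, injected in the same way. Library type and instrument changed together and cannot be told apart, and all values are from whole embryos, so that fewer cells of a type and less RNA per cell cannot be told apart either.

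A fertilised fish egg does not transcribe its genome. It divides on messengers and proteins that the mother laid down in the oocyte, and only after a series of cleavages is the zygotic genome switched on, while the stored messengers are destroyed in parallel. SLAM-seq separates these populations within a single library: a chemical step changes the base pairing of 4sU, labelled transcripts are then read with T-to-C changes, and the frequency of these changes gives the labelled share of each gene. During this transition the enveloping layer, the yolk syncytial layer, the mesendoderm, the ectoderm and the germ cells become distinct, and the last of these carry their determinants in maternal germ plasm.

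The late libraries held 10212400 and 17814709 reads in genes, in the polyA+ and the ribo-depleted library, and the order polyA+ then ribo-depleted is kept for every pair of values given here. Labelled reads made up 16.4% and 18.7% of these reads. The 8932 genes held 95.4% and 67.0% of the labelled reads and 97.1% and 85.8% of the unlabelled reads. As background, the median NTR of these genes at 1 hpf, before the main activation of the genome, was 0% in both library types among genes with 100 or more reads there. An NTR of 10% or more at 1 hpf was listed for 4 of 7393 such genes in the polyA+ and for 212 of 8229 in the ribo-depleted library. The label also had a ceiling. In the 126 genes without a single read at 1 hpf in either library, for which all RNA should be new, the median NTR at the late stage was 70.6% and 79.5%, so that unlabelled reads can include new RNA. The highest NTR of any of the 8932 genes was 86.4% and 98.3%, and 333 genes had an NTR of 0 in both libraries.

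Fewer genes were called for new than for stored RNA. Called by limma, 1625 genes took a larger share of the labelled than of the unlabelled reads (18.2 percent of the genes tested) and 4376 genes a larger share of the unlabelled reads (49.0 percent), while 2931 genes were not called either way. By size alone, 1635 genes (18.3 percent) were 2-fold or more higher in new RNA in both libraries and 4223 (47.3 percent) were 2-fold or more higher in stored RNA in both. The median NTR was 58.1% and 59.9% in the genes called for new RNA, and 1.77% and 1.96% in those called for stored RNA, against 8.02% and 8.44% over all 8932. The 1625 genes held 48.9% and 34.4% of all labelled reads with 8.47% and 6.85% of the unlabelled ones. The 4376 genes held 54.5% and 51.0% of the unlabelled reads and 9.99% and 8.24% of the labelled ones. The raw signal, T-to-C changes per covered T, had medians of 4.68% and 3.91% in the new class and 0.373% and 0.332% in the stored class, against 0.892% and 0.755% over all genes. The NTR sets the ratio by which genes were called, and it is estimated from T-to-C changes. The medians of both describe the classes, follow from the rule and are no separate support.

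The split depended on what counts as balance. Each pool was scaled to its own sum over all genes of the library, and the median gene lay below balance, at a log2 ratio of -1.11 and -1.29. Relative to that median gene, limma called 2780 genes for new and 2715 for stored RNA, and with each pool scaled to its sum over the 8932 genes alone it called 1785 and 3838. All log2 ratios below are of the share of labelled reads over the share of unlabelled reads, with 1 read added to each, and they are given relative to equal shares. With 2 libraries the p-values have 1 residual degree of freedom beside the spread borrowed across genes. They measure how far the library types disagree, since the samples are technical replicates per the series description, and not how embryos vary.

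**Figure D1:**
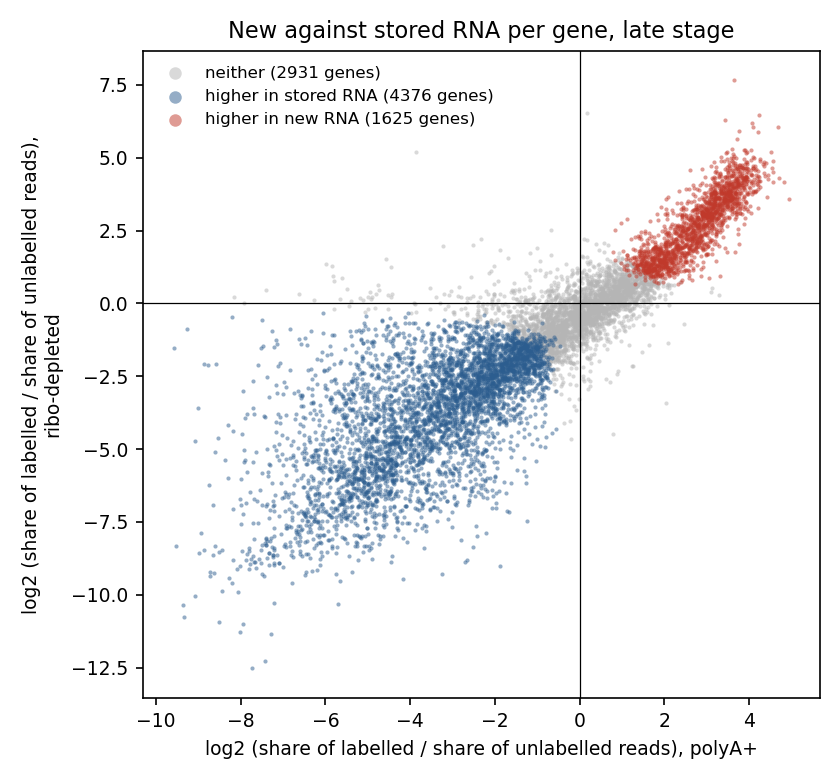
Each point is 1 of the 8932 genes, with its log2 ratio of the share of labelled over the share of unlabelled reads in the polyA+ library (x axis) and in the ribo-depleted library (y axis). Red marks the 1625 genes called higher in new RNA, blue the 4376 called higher in stored RNA and grey the 2931 called neither way. The red cloud is compact, whereas the blue one spreads over many log2 units.

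Both libraries ranked the genes alike. Across the 8932 genes, which are not independent replicates, the log2 ratios of the libraries had a Pearson r of 0.893 and a Spearman rho of 0.907, the sign was the same in 8136 genes (91.1%), and the median standard deviation (SD) between the libraries was 0.48. The 50 genes just inside the minimum, with 100 to 101.5 reads in their lower library, had a median NTR of 18.04% and 14.8%. The 50 just outside, with 98 to 99.8 reads, had one of 6.23% and 5.46%. These sets lie few reads apart and are small beside the range of the NTR, with quartiles of 1.77% and 25.9% over the 8932 genes in polyA+ RNA. No effect of the minimum can be read from them.

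Elongation factor 1-alpha led the new transcriptome. Counted over all genes of each library alone, the 10 genes with the largest share of labelled reads held 8.01% of the polyA+ labelled reads. In the ribo-depleted library they held 6.57%. That ribo-depleted set included genes with too few polyA+ reads to be compared here, such as hist1h4l.6 with 0.628% and rn7sl1 with 0.618%. It did not include hmga1a or sall4. The genes named below are from those compared in both libraries. eef1a1l1, which brings aminoacyl-tRNAs to the ribosome, held 2.21% and 1.35% of the labelled and 0.629% and 0.369% of the unlabelled reads. Its NTR was 40.8% and 45.7%. Its log2 ratio of 1.84 ± 0.20 (moderated standard error of limma, SE, n = 2 libraries) passed the test with an adjusted p of 0.000362. Here and below, this SE includes the spread borrowed across genes and is not the error of the 2 values alone. The eef1a1l1 messenger was abundant already at 1 hpf, at 2715 and 1411 RPM (reads scaled to the library total, parts per 1000000), so this gene stood high in both pools. hmga1a, a chromatin architectural protein, followed with 0.936% and 0.411% of the labelled reads and 0.365% and 0.171% of the unlabelled ones. ddx5, an RNA helicase, held 0.812% and 0.477% of the labelled and 0.223% and 0.187% of the unlabelled reads. For sall4, a zinc finger factor of pluripotent cells, these shares were 0.655% and 0.378% against 0.155% and 0.166%. The egg held these messengers too, since at 1 hpf the level of hmga1a was 2001 and 651 RPM, that of ddx5 1309 and 658 RPM and that of sall4 835 and 656 RPM.

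Other leading genes of the new pool were nearly absent from the egg. marcksl1b, an actin-binding relative of MARCKS, had 8.28 and 11.3 RPM at 1 hpf and 1716 and 947 RPM at the late stage, with an NTR of 68.7% and 74.98%. akap12b, an anchoring protein for protein kinase A, had 0.938 and 1.44 RPM at 1 hpf and held, at the late stage, 0.552% and 0.513% of the labelled reads and 0.0428% and 0.0314% of the unlabelled ones, a 14.5-fold difference in share (adjusted p = 0.000176). apoeb, a lipid carrier of the yolk syncytial layer, had no read in the polyA+ and 12 reads in the ribo-depleted library at 1 hpf. At the late stage it held 0.577% and 0.442% of the labelled reads against 0.0721% and 0.0481% of the unlabelled ones. These shares are of reads, so that a long transcript weighs more. Per base of gene length, ranks in each pool were taken among the 8932 genes alone, without the short genes outside them. There 9 of the 10 leading genes in polyA+ and 10 of 10 in ribo-depleted RNA were still among the first 100. akap12b, with a gene length of 9480 bases, was the one that left in polyA+ RNA.

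The stored transcriptome held chaperones, RNA-binding proteins and elongation factors among its largest genes. eef1a1l1 had the largest mean share there as well. It was followed by khdrbs1a, an RNA-binding protein of the Sam68 family, which held 0.505% and 0.386% of the unlabelled and 0.507% and 0.663% of the labelled reads and did not pass the test (log2 ratio 0.39 ± 0.27, adjusted p = 0.227). hspa8, the constitutive Hsp70 chaperone, held 0.354% and 0.398% of the unlabelled reads and 0.379% and 0.319% of the labelled ones, with a log2 ratio of 0.10 and -0.32 and no call. hnrnpabb, a heterogeneous nuclear ribonucleoprotein, was higher in stored RNA, with 0.513% and 0.158% of the unlabelled against 0.276% and 0.0982% of the labelled reads (adjusted p = 0.0261), but its log2 ratios of -0.89 and -0.68 lay above those of the median gene. hsp90ab1, the constitutive Hsp90 chaperone, had shares of 0.346% and 0.281% against 0.127% and 0.0680% and was 3.35-fold higher in stored RNA. ccna2, the cyclin A of dividing cells, held 0.278% and 0.238% of the unlabelled reads but 0.0263% and 0.0691% of the labelled ones, with an NTR of 1.82% and 6.26%. Per base of length, and ranked among the 8932 genes alone, all 10 leading genes of the stored pool stayed among the first 100 in both libraries.

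**Figure D2:**
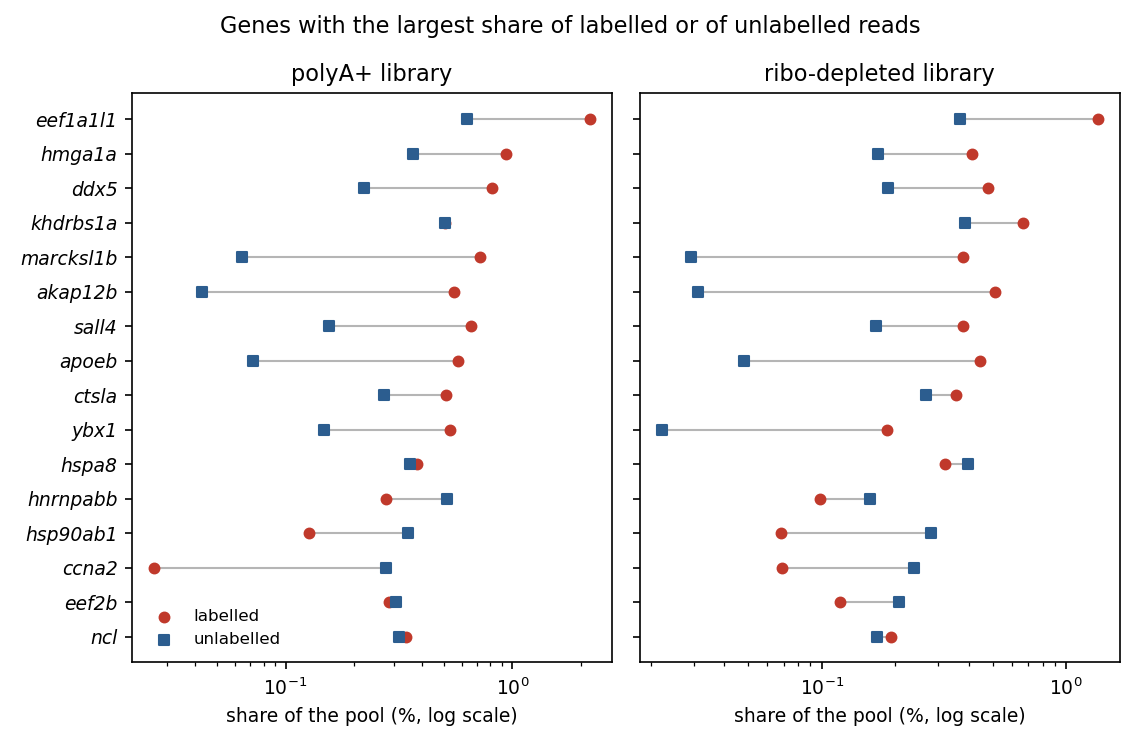
Share of the labelled (red circles) and of the unlabelled reads (blue squares) in the polyA+ (left) and the ribo-depleted library (right). The log axis is in percent. The 16 genes drawn were among the first 10 of either pool, counting only genes with enough reads in both libraries. eef1a1l1 stands at the right in both pools, marcksl1b, akap12b and apoeb are far apart with red on the right, and ccna2 and hsp90ab1 are apart with blue on the right.

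Some genes were large in both pools, and most of those named here were not called either way. By the smaller of the labelled and the unlabelled share, the first were eef1a1l1, khdrbs1a, hspa8, ctsla, hmga1a, ncl, hnrnpa0l, ddx5, eef2b and cirbpb. ctsla, the lysosomal protease cathepsin L, had an NTR of 26.9% and 23.4% and a log2 ratio of 0.91 and 0.40, which missed the threshold (adjusted p = 0.0619) but passed it after subtraction of its NTR at 1 hpf (0.0139) and with a pseudocount of 5 reads (0.046). ncl, nucleolin, had 0.11 and 0.19 with an NTR of 17.5% and 20.8%. hnrnpa0l, an hnRNP, and eef2b, elongation factor 2, were not called either, with log2 ratios of 0.36 and -0.05 and of -0.10 and -0.80. cirbpb, a cold-inducible RNA-binding protein, had 0.81 and 0.29 and passed the test after the same subtraction (adjusted p = 0.0252). Of these 10 genes, eef1a1l1, hmga1a and ddx5 were called for new RNA and the other 7 were not called. Counted over the 8932 genes alone, the 100 largest genes of each pool had 36 and 33 genes in common.

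The new pool was the more concentrated in both libraries. The most abundant 448 and 317 genes held 50% of the labelled reads, whereas 822 and 958 genes were needed for 50% of the unlabelled reads. For 90% the numbers were 3648 and 3598 against 4956 and 5349. Counted over the 8932 genes alone they were 395 and 497 for 50% of the labelled reads and 774 and 974 for 50% of the unlabelled reads. Per base of gene length the polyA+ numbers were 400 and 701, labelled then unlabelled, but the ribo-depleted ones dropped to 71 and 173.

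**Figure D3:**
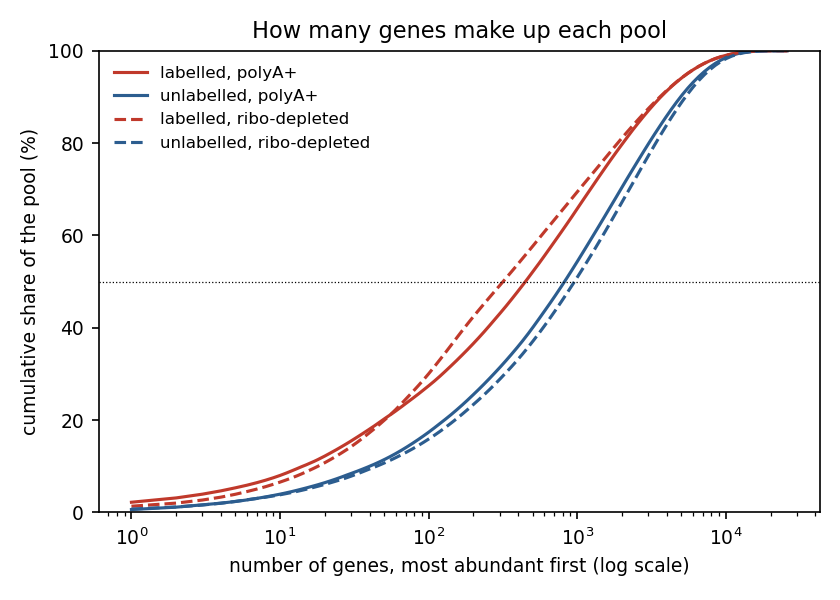
Cumulative share of a pool (y axis, percent) held by its most abundant genes (x axis, number of genes, log scale) for labelled reads (red) and unlabelled reads (blue) in the polyA+ (solid) and ribo-depleted (dashed) library; all genes of the library are counted. The red curves cross 50% at 448 and 317 genes and the blue ones at 822 and 958.

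The highest ratios were those of genes scarcely present at 1 hpf or absent there. Among called genes with 1000 or more reads in both libraries, the first 10 with a gene symbol were sult6b1, krt4, grhl3, ved, krt18a.1, vgll4l, krt92, chrd, krt97 and id1, with 1 gene without a symbol passed over. sult6b1, a sulfotransferase, had no read at 1 hpf in either library and an NTR of 78.9% and 87.6%, with a log2 ratio of 4.25 and 4.94. krt4, a keratin of the enveloping layer, had an NTR of 74.6% and 89.8% and log2 ratios of 3.90 and 5.26. grhl3, a transcription factor of the same layer, had 4.32 and 4.77. ved, a homeobox repressor of dorsal genes, had 4.35 and 4.72, and chrd, the dorsal antagonist of BMP ligands, had 3.70 and 4.99. id1, an inhibitor of bHLH factors and a BMP target, had 3.68 and 4.82. 4 of the 10 are keratins, and their 1 hpf level lay between 0 and 0.377 RPM. The 126 reference genes for the ceiling of the label had a median log2 ratio of 3.60 and 4.06 and an upper quartile of 3.87 and 4.35. In ribo-depleted RNA the ratios of the 10 genes, from 4.62 to 5.26, lay above that quartile. In polyA+ RNA they ran from 3.63 to 4.35, on both sides of it. The 10 genes were picked for their high ratios, so their place beside the quartile follows largely from the choice. sult6b1 and krt92, without a read at 1 hpf, also belong to the 126 genes.

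The lowest ratios belonged to genes with next to no labelled read. These were ccna1, lrmp, tatdn2, slc16a3, plcg1, arhgef1b, ldhba, stim1a, gyg1a and uacab, with 2 genes without a symbol passed over. ccna1, the cyclin A of eggs and early cleavage, was at 2575 and 2106 RPM at 1 hpf and at 851 and 1441 RPM at the late stage. Its 6.96 labelled reads in polyA+ RNA and 0 in ribo-depleted RNA corresponded to an NTR of 0.08% and 0%. lrmp, which in zebrafish serves the union of the pronuclei, had 325 and 426 RPM and no labelled read in either library. With its labelled reads set to a floor of 3 per library, its labelled share was 217-fold lower than its unlabelled share in the library with the smaller difference. The floor is a chosen setting and not a limit of detection. By the same setting tatdn2, arhgef1b, gyg1a, which primes glycogen synthesis, and stim1a, a calcium sensor of the endoplasmic reticulum, were 221-fold, 179-fold, 142-fold and 116-fold lower. slc16a3, a lactate transporter, had 7.01 labelled reads in polyA+ RNA and 0 in ribo-depleted RNA, at 687 and 1208 RPM. ldhba, lactate dehydrogenase B, had 1.72 and 0 labelled reads at 336 and 505 RPM. All 10 had at least 155 RPM at 1 hpf in both library types.

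The level at 1 hpf, which the split at the late stage did not use, was related to the class. Of the 1625 genes called for new RNA, 408 (25.1%) had under 1 RPM at 1 hpf in both library types, and 645 (39.7%) had 10 RPM or more in both. Among the 4376 genes called for stored RNA, 0 had under 1 RPM in both and 4075 (93.1%) had 10 RPM or more in both, against 7357 (82.4%) of all genes tested. All 126 genes with no read at 1 hpf were called for new RNA, as were 328 of the 329 genes with up to 1 RPM. Genes with next to no RNA at 1 hpf can reach 100 reads at the late stage mostly through new RNA. The outcome for these genes, and the counts under 1 RPM above, were thus largely set in advance and are no separate support. From 1 to 10 RPM, 388 of 573 were called for new and 92 for stored RNA. From 10 to 100 RPM the calls were 626 and 2626 of 5113 genes, and above 100 RPM they were 157 and 1658 of 2791. Nevertheless the genes above 100 RPM at 1 hpf supplied 49.5% and 33.6% of all labelled reads, beside 71.0% and 61.6% of the unlabelled ones, and the genes with a read but no more than 1 RPM supplied 9.12% and 6.73%. Across genes with a read at 1 hpf, the unlabelled share at the late stage followed the level at 1 hpf with a Spearman rho of 0.758 (8739 genes) and 0.839 (8777 genes). The labelled share did so with 0.130 and 0.162. In each of these the points share a library type and gene length.

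**Figure D4:**
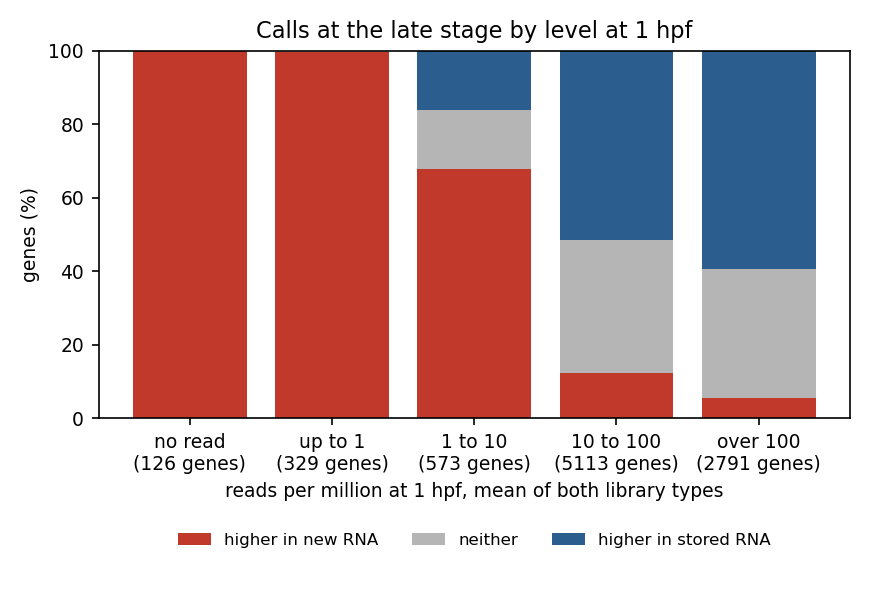
Share of genes (y axis, percent) called at the late stage for new RNA (red), for stored RNA (blue) or for neither (grey), in 5 bins of the level at 1 hpf (x axis, RPM, mean of both library types); the number of genes is under each bar. The red share goes from 126 of 126 genes without a read at 1 hpf to 157 of 2791 genes above 100 RPM. The bins of no read and of up to 1 RPM were largely set in advance by the minimum of 100 reads.

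The functions of both pools were read from 50 gene lists, which cover 1897 of the 8932 genes and hold 37.2% and 25.1% of the labelled and 29.0% and 24.0% of the unlabelled reads. The median log2 ratio was above 0 in both libraries for 24 lists, below 0 in both for 19, and of opposite sign between the libraries for 7. The counts below are to be read against 18.2 percent of all genes called for new and 49.0 percent called for stored RNA, and the medians against -1.11 and -1.29.

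**Figure D5:**
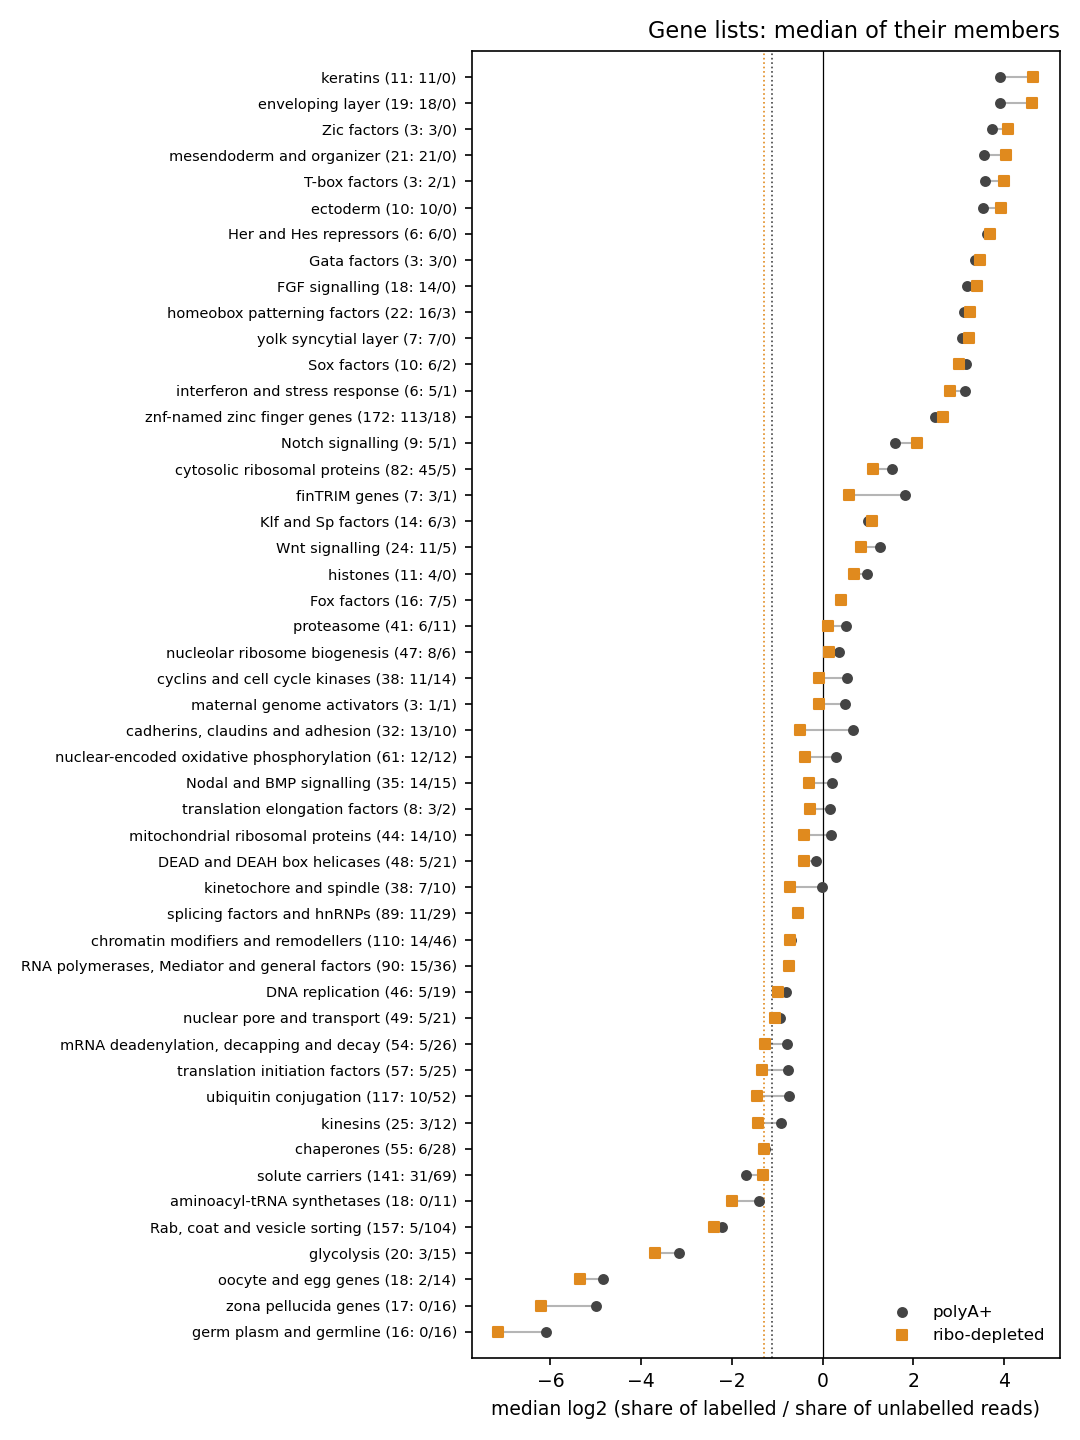
Median log2 ratio of the share of labelled over the share of unlabelled reads for the tested members of 49 of the gene lists (y axis), in the polyA+ (grey circles) and ribo-depleted (orange squares) library; after each name stand the number tested and the numbers called for new and for stored RNA, and dotted lines mark the medians over all 8932 genes. Keratins and enveloping layer genes lie at the top and germ plasm, zona pellucida and oocyte genes at the bottom.

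Genes that mark the first lineages were new. Of the enveloping layer list, the outer epithelium of the embryo, 18 of 19 tested genes were called for new RNA and 0 for stored RNA, with a median log2 ratio of 3.90 and 4.61. krt8, a keratin of this layer, was at 1.21 and 4.51 RPM at 1 hpf and at 847 and 541 RPM at the late stage, with an NTR of 74.2% and 84.5%. All 11 tested keratins were called for new RNA, and together they held 1.24% and 0.869% of the labelled reads but 0.0790% and 0.0336% of the unlabelled ones. With the NTR at 1 hpf subtracted, the ribo-depleted shares were 0.685% and 0.0935%, where the value subtracted for krt18a.1 rested on 1 read. In the yolk syncytial layer list, whose cells feed on the yolk, all 7 tested genes were called for new RNA. Among them mxtx1, a homeobox factor of this layer, had log2 ratios of 3.08 and 3.22, and hnf4a, a nuclear receptor, had 3.33 and 3.85. All 21 tested mesendoderm and organizer genes and all 10 tested ectoderm genes were called for new RNA too. In these lineage lists and in the keratins, the median level at 1 hpf was at most 0.110 and 0.222 RPM. Such genes can reach 100 reads at the late stage mostly through new RNA. Their calls were thus largely set in advance and are no separate support. tbxta, the T-box factor of the notochord, had no read and 3 reads at 1 hpf and an NTR of 70.0% and 82.8%. sox3 and sox19a, SoxB1 factors of the ectoderm, had log2 ratios of 3.52 and 4.01 and of 3.51 and 3.82.

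Germ cell genes were at the other end. All 16 tested germ plasm and germline genes were called for stored RNA, and they held 0.00224% and 0.00840% of the labelled reads against 0.181% and 0.182% of the unlabelled ones. Their median log2 ratio was -6.09 and -7.15, or -4.86 and -6.08 with labelled reads raised to the floor of 3. piwil1, a Piwi protein, had no labelled read in either library at 111 and 137 RPM. With labelled reads set to the floor of 3, its labelled share was 74.1-fold below its stored share in the library with the smaller difference. ddx4, the vasa helicase, had 4.84 and 0 labelled reads, and buc, the organizer of the germ plasm, had an NTR of 0.45% and 0.69%. dazl, an RNA-binding germ cell protein named here after its values were seen, came closest to balance, with an NTR of 1.76% and 13.3% and log2 ratios of -3.20 and -0.57 (adjusted p = 0.0483).

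Most genes of the egg coat and of the oocyte were stored as well. Of 17 zona pellucida genes tested, which encode glycoproteins of the egg coat, 16 were called for stored and 0 for new RNA, with a median NTR of 0.08% and 0%. zp3d.1 had no labelled read at 129 and 127 RPM, and zp3.2 had an NTR of 1.34% and 1.71%. Of 18 tested oocyte and egg genes 14 were called for stored RNA and 2, ybx1 and stm, for new RNA. In sum this list held more of the labelled reads, 0.913% and 0.503%, than of the unlabelled ones, 0.534% and 0.469%, against the direction of its median. Of the labelled sum, ybx1 alone held 0.529% and 0.185%. In ribo-depleted but not in polyA+ RNA the sum turned per base of gene length, to 0.225% against 0.297%. With the NTR at 1 hpf subtracted it turned there too, to 0.446% against 0.481%. ybx1, a Y-box protein that binds stored messengers, had an NTR of 41.2% and 65.8%, but of 24.4% already at 1 hpf in the ribo-depleted library. stm, which encodes starmaker of the ear stones, had 0.110 and 0 RPM at 1 hpf and an NTR of 66.5% and 75.9%. h1m, the linker histone of the egg, was not called, with an NTR of 6.44% and 20.4%, and of 0.47% and 12.3% at 1 hpf. With the latter subtracted it was called for stored RNA, at a log2 ratio of -1.37 (limma, adjusted p = 0.00818).

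The 3 maternal activators of the zygotic genome differed from each other. pou5f3 was called for new RNA, with an NTR of 38.9% and 43.4% and a log2 ratio of 1.70 and 1.74, while in ribo-depleted RNA an NTR of 8.82% was listed for it at 1 hpf. nanog was near balance, at 0.50 and -0.09 with an NTR of 21.7% and 17.8% (adjusted p = 0.585). sox19b was called for stored RNA, at -3.07 and -4.02 with an NTR of 2.25% and 1.38%. At 1 hpf pou5f3 was at 874 and 347 RPM, nanog at 2344 and 826 RPM and sox19b at 389 and 668 RPM.

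Families of patterning transcription factors differed in how many members were new. The 3 tested Zic factors, the 3 Gata factors and the 6 Her and Hes repressors were all called for new RNA. The median level of each of these families at 1 hpf was at most 0.386 and 0.644 RPM. With a minimum of 100 reads, these calls too were largely set in advance. Of 22 tested homeobox patterning factors 16 were called for new RNA and 3, lhx8a, otx1 and meis1a, for stored RNA. Their median level at 1 hpf was 0.386 and 0.866 RPM, so most of the calls for new RNA were also largely set in advance. vox, a ventral repressor like ved, had log2 ratios of 3.86 and 4.08. lhx8a, a LIM homeobox factor known from mammals to act in oocytes, had no labelled read in either library. Of 3 tested T-box factors tbx16 and tbxta were new and eomesa was stored. The median level of the 3 at 1 hpf was 0 and 0.133 RPM, and the calls of tbx16 and tbxta were largely set in advance too. tbx16, which drives mesoderm movement, was at 0 and 0.044 RPM at 1 hpf and held an NTR of 74.0% and 78.5%. eomesa, which is supplied by the mother and acts in endoderm, had an NTR of 0% and 0.09% after 584 and 104 RPM at 1 hpf. Among 10 Sox factors 6 were called for new and 2 for stored RNA, among 16 Fox factors 7 and 5, and among 14 Klf and Sp factors 6 and 3. foxh1, the transcriptional partner of Smads in Nodal signalling, had an NTR of 44.0% and 38.0% and foxo3a, a target of insulin signalling, one of 1.04% and 1.24%.

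Signalling pathways held calls in both directions. Of 35 tested Nodal and BMP genes 14 were called for new and 15 for stored RNA. The new ones included the Nodal ligand ndr2 (log2 ratio 4.35 and 4.48), the Nodal antagonists lft1 (3.78 and 4.63) and lft2 (3.92 and 4.33), the BMP ligands bmp2b (3.83 and 3.89), bmp4 (4.42 and 3.67) and bmp7a (3.06 and 3.28), and the Nodal co-receptor tdgf1 (2.92 and 2.61). tdgf1 was at 85.3 and 105 RPM at 1 hpf, and the 6 others at 1.24 RPM or less. The BMP receptors bmpr1aa (1.99 and 1.57) and bmpr1ab (2.32 and 1.88) were new as well. gdf3, the maternal partner of Nodal ligands, was called for stored RNA, with an NTR of 0.26% and 0.11% and log2 ratios of -6.13 and -7.60. acvr1l, a type I receptor for BMP, was called for stored RNA (-1.16 and -1.37), though it lay close to the median gene. The Nodal receptor acvr1ba (0.76 and 0.07) and the transducer smad5 (-0.59 and -1.19) were not called. In the FGF list 14 of 18 tested genes were called for new RNA and 0 for stored RNA. The median level of this list at 1 hpf was 1.13 and 2.68 RPM. For its members with next to no RNA at 1 hpf, the call was likewise largely set in advance. Its receptor fgfr4 had log2 ratios of 3.40 and 3.55, and fgfr1a, another receptor, had 0.20 and -0.31 with no call. Of 24 Wnt genes 11 were called for new and 5 for stored RNA. ctnnb1, beta-catenin, was not called at 0.59 and 0.55, though it was called for new RNA with the NTR at 1 hpf subtracted (adjusted p = 0.0328), and apc, a scaffold of the complex that degrades it, was called for stored RNA at -2.11 and -1.34. Of 9 Notch genes 5 were new and 1, the ligand jag2b, was stored. The receptor notch3, without a read at 1 hpf, had 3.54 and 4.10, and notch1a, which the egg holds at 195 and 180 RPM, had 0.66 and 0.78 and was called after that subtraction (adjusted p = 0.0455).

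Most of the tested znf-named zinc finger genes were called for new RNA. The table held 347 genes with such a name, and 172 had enough reads to be tested. Their median level at 1 hpf was 3.06 and 9.49 RPM, against 45.7 and 58.7 RPM over all genes tested. Members with next to no RNA at 1 hpf can reach 100 reads mostly through new RNA, so their calls were largely set in advance. Of 172 tested genes with a znf name 113 were called for new and 18 for stored RNA, with a median log2 ratio of 2.48 and 2.66, and they held 1.96% and 1.55% of the labelled reads against 0.837% and 0.824% of the unlabelled ones. Many of them sit in near-identical copies between which reads may be split. Reading the order of genes from RefSeq (assembly GRCz12tu, 8297 genes matched by symbol), the gene after one called for new RNA was itself called so in 303 of 1372 cases (22.1%), beside 16.6% of all matched genes, and in 20.9% beside 16.2% without the znf-named genes. The longest unbroken run among tested genes had 30 genes called for new RNA, 15 of them znf-named and the others with clone-based names, with median log2 ratios of 3.04 and 3.29. The clone-named genes of this run stayed in the count without znf-named genes, so that count is not free of the cluster. A run of 8 held 4 znf-named genes, and a run of 6 held the keratin genes krt92, cyt1l, cyt1 and krt17.

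Genes of translation were called in both directions, in shares that differed between lists. Of 82 tested cytosolic ribosomal protein genes 45 were called for new and 5 for stored RNA, with a median NTR of 36.1% and 33.0% and a median log2 ratio of 1.53 and 1.10. Together they held 2.25% and 1.72% of the labelled and 1.00% and 1.05% of the unlabelled reads. Per base of gene length the shares were 5.30% against 2.77% in polyA+ RNA, but 1.80% against 1.78% in ribo-depleted RNA. Among the stored ones were rpl12, rpl18, rps14 and rpl5b. rpl12, a protein of the ribosomal stalk base, had log2 ratios of -2.80 and -2.93 with an NTR of 2.72% and 2.92%. Of 8 elongation factors 3 were called for new and 2 for stored RNA, and with eef1a1l1 among them they held 2.58% and 1.53% of the labelled against 0.985% and 0.641% of the unlabelled reads. Translation initiation factors were called 5 for new and 25 for stored RNA of 57, and aminoacyl-tRNA synthetases 0 and 11 of 18. aars1, which charges tRNA with alanine, had log2 ratios of -4.90 and -4.59. Nucleolar genes of ribosome biogenesis lay near balance, with 8 and 6 calls of 47 and medians of 0.37 and 0.15. Mitochondrial ribosomal protein genes had 14 new and 10 stored calls of 44, with medians of 0.19 and -0.41, and nuclear-encoded oxidative phosphorylation genes 12 and 12 of 61. ndufs6, a subunit of complex I, had 3.18 and 4.17, and atp5fa1, the alpha subunit of the ATP synthase, had -1.02 and -1.81.

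Most glycolysis genes were stored. Of 20 tested genes 15 were called for stored and 3 for new RNA, with median log2 ratios of -3.17 and -3.71. gapdh, which oxidises glyceraldehyde phosphate, had an NTR of 0.31% and 9.85%, and of 0.95% and 8.86% already at 1 hpf, and eno3, an enolase, one of 3.36% and 1.37%. Among the new ones, aldoaa, an aldolase, had log2 ratios of 1.54 and 0.89, and pfkfb4b, which sets the level of an activator of glycolysis, had 2.42 and 2.36. The list as a whole took 0.458% and 0.298% of the labelled reads against 0.222% and 0.358% of the unlabelled ones, so that the sums went in opposite directions in the libraries while the medians did not.

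Most vesicle traffic genes were stored. Of 157 tested Rab, coat and vesicle sorting genes 104 were called for stored and 5 for new RNA, with a median NTR of 3.74% and 4.18% and median log2 ratios of -2.22 and -2.38. copb2, a subunit of the COPI coat, had -2.18 and -3.32, and sec61b, a subunit of the translocon, had -2.08 and -2.90. The new ones were sec61g, snx12, rab34a, rab25a and sec14l1. rab25a, a Rab of epithelial recycling, had an NTR of 65.2% and 74.5%. Chaperones had 28 stored and 6 new calls of 55, among the latter hspb1, a small heat shock protein, with 3.56 and 3.86. Ubiquitin conjugation genes had 52 and 10 of 117, genes of messenger decay 26 and 5 of 54, and kinesins 12 and 3 of 25. For these lists and for chaperones, the share called for stored RNA was close to that of all genes or below it. Their share called for new RNA was lower than that of all genes. xrn2, a 5′ exonuclease, had an NTR of 0.55% and 4.21%, and btg1, an antiproliferative partner of the deadenylase complex, had 66.6% and 65.3%. Solute carriers were called in both directions, 31 for new and 69 for stored RNA of 141, close to the shares of all genes. slc7a8a, an amino acid transporter, had an NTR of 60.8% and 65.2% after 0.110 and 0.178 RPM at 1 hpf.

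Cell cycle genes were called in both directions. Of 38 tested cyclins and cell cycle kinases 11 were called for new and 14 for stored RNA. ccnd1, the cyclin of the G1 phase, was at 13.7 and 11.8 RPM at 1 hpf and at 704 and 423 RPM at the late stage, with log2 ratios of 3.51 and 3.82. ccne2, a cyclin E of the start of S phase, had 3.68 and 4.30, and its paralog ccne1 was called for stored RNA at -1.77 and -2.53. ccnb1, the mitotic cyclin B, was just past the threshold on the stored side (-0.47 and -1.47, adjusted p = 0.0428), and lost its call with a pseudocount of 0.5 reads (0.0561). Replication genes had 5 new and 19 stored calls of 46. In the MCM helicase complex, which unwinds DNA in S phase, mcm3 and mcm6 had an NTR of 71.7% and 80.0% and of 72.0% and 85.3%, mcm2 one of 47.8% and 41.0%, and mcm4 one of 5.94% and 2.95%. pcna, the sliding clamp, was called for new RNA at 1.34 and 1.44. Chromatin modifiers and remodellers had 14 new and 46 stored calls of 110, with brd2a, a bromodomain reader of acetylated histones, at 3.09 and 2.97. Splicing factors and hnRNPs had 11 and 29 calls of 89 and held 4.20% and 1.74% of the labelled and 4.42% and 2.34% of the unlabelled reads. srsf5a, a splicing regulator, had 3.50 and 3.63.

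Genes of the stress response were measured because injection itself can be a stress. Of 6 interferon and stress genes 5 were called for new RNA and hspa5 for stored RNA. At 1 hpf the median level of the 6 was 0.110 and 0.044 RPM, and 2 of them had no read in either library. Members with next to no RNA at 1 hpf can reach the minimum of reads mostly through new RNA. Their calls for new RNA were thus largely set in advance and are no separate support. hspa5, a chaperone of the endoplasmic reticulum, had -1.36 and -1.19, close to the median gene at -1.11 and -1.29. Whether the levels of these 6 genes come from the injection was not tested, since every sample was injected.

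Adhesion genes showed maternal and zygotic members side by side. Of 32 cadherins, claudins and adhesion genes 13 were called for new and 10 for stored RNA. cdh1, E-cadherin, and epcam were near balance, at 0.23 and -0.94 and at 0.55 and -0.44, and neither was called. cldnd, an egg claudin, was at 3663 and 2051 RPM at 1 hpf and at 153 and 243 RPM at the late stage, with an NTR of 0.09% and 0.02%. cldng, another claudin, had no labelled read. With labelled reads set to the floor of 3, its labelled share was 60.8-fold below its stored share in the library with the smaller difference. tjp1a, a scaffold of tight junctions, was stored at -4.52 and -4.26.

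The classes differed a little in gene length and clearly in naming. Median length was 2283 bases (quartiles 1516 and 3724) for genes called for new RNA, 2757.5 bases (1842 and 4419.5) for genes called for stored RNA and 2580.5 bases for all genes, and across genes the log2 ratio had a Spearman rho of -0.11 and -0.10 with length. Clone-based or identifier names made up 20.7% of the new class, 7.77% of the stored class and 10.9% of all genes.

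The libraries disagreed strongly on 24 genes, which were 2-fold or more higher in new RNA in one and in stored RNA in the other. None of the 24 was called. In 17 of them the ribo-depleted library gave the new side, and 15 of these 17 had an NTR of 10% or more at 1 hpf in that library type. apeh, an acylaminoacyl peptidase and one of the examples chosen after their values were seen, had an NTR of 0.80% and 35.2% at the late stage and 0% and 26.5% at 1 hpf. eed, a subunit of the Polycomb complex, had 4.51% and 36.1%, and 0% and 28.7% at 1 hpf. In the other 7 the polyA+ library gave the new side, as for atp5f1b, the beta subunit of the ATP synthase, with an NTR of 32.1% and 4.89% at 204 and 831 RPM.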

How the data were processed

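Total RNA of pooled embryos was sequenced as 1 polyA+ and 1 ribo-depleted library at each of 1 hpf and the late stage. The authors trimmed reads with cutadapt, aligned them with STAR to GRCz11 and ran GRAND-SLAM on an Ensembl annotation. The table deposited by the authors gives, per gene and library, the estimated count of reads made by GRAND-SLAM, which need not be whole, and the NTR as a fraction from 0 to 1. It also lists numbers of T-to-C conversions, covered T bases and gene length. The libraries of a stage carry no replicate number. The 8932 genes and the 50 gene lists were chosen with earlier results of these data known.

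Labelled reads (count times NTR) and unlabelled reads were each scaled to their sum over all genes of the library, and the log2 ratio of the shares was taken with a pseudocount of 1 read. limma (version 3.58.1, trended variance, R 4.3.3) tested the mean of 2 libraries against 0, with Benjamini-Hochberg adjustment over 8932 genes at a threshold of 0.05, and edgeR (version 4.0.16) served as an alternative. The test was also run on simulated data, and the outcome is not reported here. Python 3.11.15, numpy 2.4.6 and pandas 2.3.3 were used. For genes with no labelled read, fold differences were given with labelled reads set to a floor of 3. This floor is a chosen setting and not a limit of detection. The NTR is a model estimate, so no binomial interval is given for it.

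Genes with a symbol were named by fixed rules: the 10 largest labelled and unlabelled shares, the 10 highest and 10 lowest ratios among called genes with 1000 or more reads in both libraries, the 10 largest in both pools, and from each list up to 4 members with the most reads and called members opposite to its median. Names came from the table for 8818 genes and from the reference for 85, while 29 had none, and 7960 had a symbol. Alternatives changed the pseudocount, the minimum count, the scaling, the tool, the subtraction of the NTR at 1 hpf and the library. Sequence features were not analysed here, and some genes and 1 list are not reported here.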

Additional observations from a re-analysis of the deposited data

Results flagged for a closer look

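In the ribo-depleted library 33.0% of all labelled reads fell in genes outside the 8932, against 4.59% in the polyA+ library. The summed NTR of these genes was 34.9% at the late stage and 5.66% at 1 hpf in ribo-depleted RNA, and 23.6% at the late stage in polyA+ RNA. Among them, genes under 500 bases held 21.3% of all labelled reads of the ribo-depleted and 0.253% of those of the polyA+ library.

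A second result is the set of 24 genes that were 2-fold or more higher in new RNA in one library and in stored RNA in the other. The difference between the libraries was not tested gene by gene, and the part of the NTR at 1 hpf in it was not tested.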

How the results depend on the processing

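No paired analysis was possible because the deposited values carry no replicate number to link libraries across stages. Labelled and unlabelled reads were compared within each library, and edgeR with the library as a block called 1698 and 4296 genes. No called gene was called in the opposite direction in any alternative tried for the calls. The counts called for new and stored RNA were 3415 and 6103 with a minimum of 10 reads (14987 genes), 346 and 1264 with 1000 reads (2250 genes), 2780 and 2715 relative to the median gene, and 856 and 2748 among the 5449 genes with whole reads in both libraries. Fewer or more genes were tested in the first, second and last of these. By size alone, a single library gave 1747 to 2088 genes for new and 4609 to 4892 for stored RNA. The number of lists with the larger labelled share in both libraries was 27, or 22 per length and 27 to 35 from 1 library, and with the larger unlabelled share 15, or 15 to 23 from 1 library. Per length, the genes holding 50% of the ribo-depleted pools numbered 71 labelled and 173 unlabelled, and over the 8932 genes alone 497 labelled. Of 433 named genes 18 lost their call with a pseudocount of 0.5 reads, among them ccnb1 and snx12 (limma, adjusted p = 0.0553). With the NTR at 1 hpf subtracted, 10 lost their call at an unchanged sign and 8 gained one. With that subtraction 7 other named genes lost their call and turned to a negative log2 ratio. They were krt18a.1 (-3.40), bmp4 (-0.50), slc6a7 (-0.29), slc43a2b (-1.86), mxtx1 (-2.34), isg15 (-1.95) and slc22a5 (-0.85). In at least 1 library of each of these the NTR subtracted rested on at most 2 reads at 1 hpf, and with subtraction only from 100 reads, an alternative chosen after seeing the data, these genes had 4.55, 4.17, 4.60, 4.41, 3.27, 3.26 and 3.38. Also chosen after seeing the data, a floor of 3 reads gave 1747 and 4735 calls, and leaving out genes with an NTR of 10% or more at 1 hpf gave 1611 and 4428 of 8717. The 2 libraries and the ceiling of the label limit what can be resolved.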

Other observations

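The messengers of replication-dependent histone genes mostly lack a polyA tail. Of the 57 genes on the histone list, 11 were among the 8932 genes. Outside the 8932, 38 genes with a name starting in hist were counted, and genes with clone-based names were left out. These 38 had 507942 reads in the ribo-depleted and 597 in the polyA+ library at the late stage. In ribo-depleted RNA they held 8.79% of the labelled and 1.49% of the unlabelled reads, with an NTR of 57.7%, and of 15.6% at 1 hpf. An NTR of 10% or more was listed for 38 of them at the late stage and for 15 at 1 hpf.

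The 40 genes outside the 8932 with the most labelled reads held 14.3% of the labelled and 2.57% of the unlabelled reads of the ribo-depleted library, and 24 of the 40 had an NTR of 10% or more at 1 hpf.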
